A study of Homo sapiens with 16 samples.

Results

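The 10 glycolysis genes described here are HK2, GPI, PFKP, ALDOA, TPI1, GAPDH, PGK1, ENO1, PKM and LDHA. They were chosen by symbol, as 1 gene for each step from glucose to lactate other than that of phosphoglycerate mutase. All 10 were among the 58302 gene identifiers counted, and all 10 passed the filter on low counts in every fit. The study measured polyadenylated RNA in HEK-293, a human embryonic kidney cell line, after siRNA silencing of Gemin5 (siRNAG5) and in control cells (Ctrl). Gemin5 is an RNA-binding protein of the survival of motor neurons complex that also acts in translation. RNA came from the cytoplasmic lysate (Input) and from the pooled heavy fractions of a sucrose gradient, which hold mRNAs loaded with several ribosomes (Polysome). Each of the 4 groups, Input Ctrl, Input siRNAG5, Polysome Ctrl and Polysome siRNAG5, held 4 libraries, 16 in all. They come from 4 Ctrl and 4 siRNAG5 cultures, since the study's methods describe Input and Polysome RNA taken from each lysate, although the labels do not say that libraries of the same number share a lysate. The fits across fractions treat the 16 libraries as independent unless a block is named. The labels call the Ctrl cells untreated, whereas the methods of the study describe a control siRNA, so that the treatment of Ctrl is uncertain. All libraries come from the same transformed line in culture, and the silencing rests on 1 siRNA.

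Glycolysis splits glucose into pyruvate and yields ATP and NADH, and lactate dehydrogenase then turns pyruvate into lactate and restores the NAD that the pathway needs. Growing cultured cells run it at a high rate even in oxygen, so that its lower enzymes are encoded by some of the most abundant mRNAs of the cell. HK2 traps glucose by phosphorylation, GPI isomerises the product, and PFKP catalyses the committed step. ALDOA splits the hexose, and TPI1 interconverts the resulting triose phosphates. GAPDH and PGK1 carry out the oxidation and the ATP-yielding step that follows it, ENO1 makes phosphoenolpyruvate, PKM makes pyruvate and ATP, and LDHA makes lactate.

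The first 15 bases of each mRNA are shown because mRNAs with a terminal oligopyrimidine (TOP) tract, a C at the cap followed by pyrimidines, are a large class of mRNAs with regulated translation. The bases are those at the annotated start of the canonical transcript, on the strand of the gene, in GENCODE v44 (GRCh38), and a pyrimidine run that starts with C is in capitals. The first 10 are the glycolysis genes and the last 3 are TOP mRNAs for comparison, encoding a ribosomal protein of each subunit and elongation factor 2.
HK2 (ENSG00000159399), chr2:74834127-74834141: acattgttgcatgaa
GPI (ENSG00000105220), chr19:34365196-34365210: gcttgctgcgcgctg
PFKP (ENSG00000067057), chr10:3067548-3067562: attgcctgctgcgca
ALDOA (ENSG00000149925), chr16:30065760-30065774: gcccgcctcctgcgc
TPI1 (ENSG00000111669), chr12:6867531-6867545: gcagacactgacctt
GAPDH (ENSG00000111640), chr12:6534517-6534531: gctctctgctcctcc
PGK1 (ENSG00000102144), chrX:78104248-78104262: gttccgcattctgca
ENO1 (ENSG00000074800), chr1:8878672-8878686, minus strand: agtatctgtgggtac
PKM (ENSG00000067225), chr15:72231176-72231190, minus strand: gcacagcagctgcac
LDHA (ENSG00000134333), chr11:18394563-18394577: gtgctgcagccgctg
RPS6, chr9:19380222-19380236, minus strand: CTCTTTTCCgtggcg
RPL13A, chr19:49487608-49487622: CTTTTCCaagcggct
EEF2, chr19:3985449-3985463, minus strand: CTCTTCCgccgtcgt
None of the 10 glycolytic mRNAs was annotated to start with C and a pyrimidine run of at least 5 bases, and each of them started with a purine. Of 12407 protein-coding genes tested, 5.49% started in that way, as did 10 of 12 abundant TOP mRNAs listed for comparison. The canonical transcripts have 1285 bases (GAPDH) to 5626 bases (HK2) and 7 exons (TPI1) to 22 exons (PFKP). Annotated starts are not measured cap sites, and the libraries do not show where these transcripts began in HEK-293.

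The siRNA is shown because short matches to its guide strand in other mRNAs are a known side effect of silencing. Its sense strand as the study gives it was CCUUAAUCAAGAAGAGAAAUU. The guide that pairs with the target is the complement of the first 19 bases, uUUCUCUUcuugauuaagg, with the seed (bases 2 to 8) in capitals. The full site of 19 bases was found in the canonical transcript of GEMIN5 alone. The 7-base match to the seed, AAGAGAA, lay once in the 3′ UTR of HK2 and of TPI1 and once in the coding sequence of ENO1, and was absent from the other 7 canonical transcripts. The sites are given with the bases around them and the match in capitals.
HK2, 3′ UTR, match at chr2:74891936-74891942: cctgtgggAAGAGAAgggaagcc
TPI1, 3′ UTR, match at chr12:6870688-6870694: gagggcagAAGAGAAaccatcct
ENO1, coding sequence, match at chr1:8868032-8868038, minus strand: cacagaacAAGAGAAgattgaca
Such a match is common, being present in the 3′ UTR of 25.3% of genes. Of the 2 glycolysis genes with one there, TPI1 fell and HK2 rose in Input after silencing, as given with the Input results. Whether the siRNA acts on any of these sites was not tested.

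Each library gave between 11145324 and 24511299 reads on genes. The silenced gene followed the labels: GEMIN5 was at 15.9 to 20.7 read counts scaled to a common library size (CPM) in Input Ctrl and 6.23 to 7.46 in Input siRNAG5, and at 5.50 to 9.28 in Polysome Ctrl and 2.10 to 3.08 in Polysome siRNAG5 (log2 FC -1.40 and -1.44, edgeR adjusted p = 3.11e-10 and 0.00477). The following features of the libraries touch the results. Reads aligned to several places made up 4.88 to 6.04% of the reads in Input and 21.2 to 42.4% in Polysome, and they are in no count used here. Of 14 liver marker genes, all had reads in Input Ctrl 3 and 4 (1665 and 1363 reads summed) and in the 4 Polysome Ctrl libraries (1427 to 1978), against 9 to 26 reads in each of the other 10 libraries, where APOB, SERPINA1 and FGA were among those at 0 in both siRNAG5 groups. All 9 markers of HEK-293 had reads in every group, with a summed level of 1115 to 1606 CPM in Input and 493 to 810 CPM in Polysome. Polysome Ctrl 1, siRNAG5 1 and siRNAG5 4 were the lowest Polysome libraries in the mean of the 10 genes, each centred on its own mean, though not for each gene. Polysome results are also given without them. These libraries stand out by the levels of the glycolysis genes themselves, so that calls made without them are a description and no independent support. They differed in other genes too. Within each treatment SDHA, of the tricarboxylic acid cycle, was lowest in them in Polysome, and PGP, a regulator of glycolysis, was highest.

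CPM here are scaled by the trimmed mean of M values (TMM) over the 16 libraries, and fold changes come from the fit of each comparison. Together the 10 genes took 1.62 to 1.82% of all gene reads in Input Ctrl, 1.51 to 1.72% in Input siRNAG5, 1.10 to 1.77% in Polysome Ctrl and 1.13 to 1.75% in Polysome siRNAG5. In Input Ctrl, GAPDH alone accounted for 42.2% ± 0.781 (SD, n = 4) of the reads of the 10 genes, TPI1 for 14.7% ± 0.729 and ALDOA for 14.3% ± 0.581. HK2 accounted for 0.0225% ± 0.00210.

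Per kilobase of exon, the levels in Input Ctrl fell into an order in which no neighbours overlapped between libraries. GAPDH led at 3940 CPM per kb ± 99.6 (SD, n = 4), followed by TPI1 at 1215 ± 52.2, ALDOA at 836 ± 60.6, ENO1 at 470 ± 39.1 and LDHA at 287 ± 7.06. PKM was at 142 ± 11.7, PGK1 at 118 ± 7.00, GPI at 35.9 ± 1.54, PFKP at 7.72 ± 0.792 and HK2 at 0.851 ± 0.0810. The enzymes below the split of the hexose were thus encoded by more RNA per length than those above it. In Input siRNAG5, TPI1 (773 to 840 CPM per kb) and ALDOA (731 to 849) overlapped, as did PGK1 and PKM. In Polysome Ctrl, LDHA and ENO1 overlapped, as did PGK1 and PKM, and the other neighbours did not. GAPDH, TPI1 and ALDOA had the 3 highest means, in that order, in all 4 groups, and GPI, PFKP and HK2 were last. Per kilobase of the canonical transcript, a length taken after the data were seen, the order changed in every group but Input Ctrl. In Input siRNAG5, ALDOA (1823 CPM per kb ± 132) then lay above TPI1 (1634 ± 63.3) without overlap. PKM lay above PGK1 without overlap in Input siRNAG5 (450 against 140), Polysome Ctrl (259 against 91.3) and Polysome siRNAG5 (208 against 90.6). In Polysome Ctrl the mean of ENO1 (650) was above that of LDHA (614), with overlap.

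**Figure D1:**
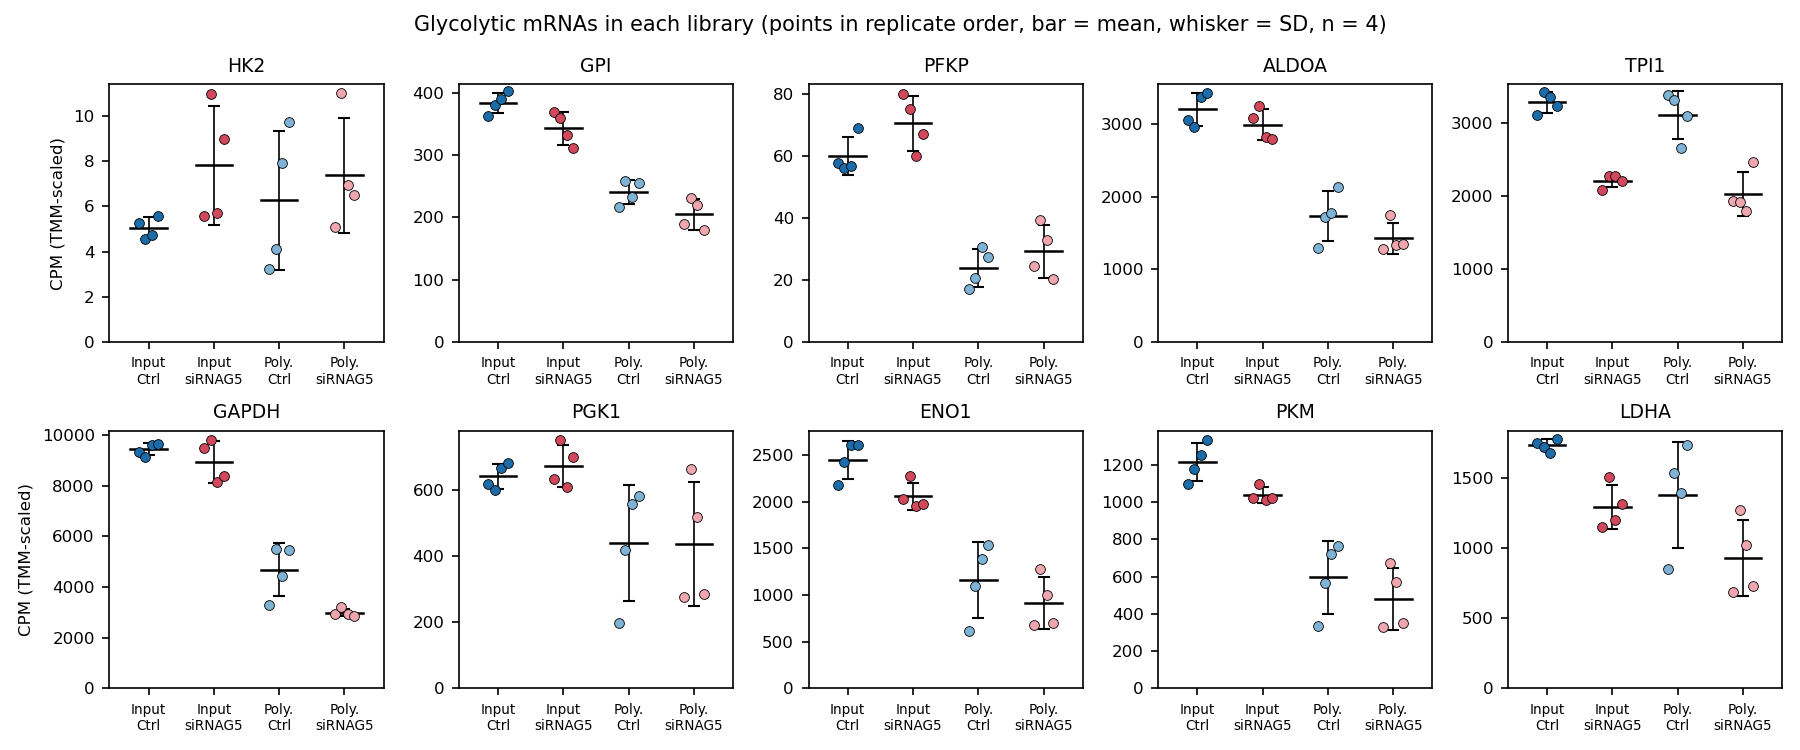
Level of each of the 10 glycolytic mRNAs in every library, in CPM (TMM over 16 libraries) on a linear axis from 0, with 1 point per library, a bar for the mean of each group of 4 and whiskers for the SD. TPI1 lies at 2086 to 2269 CPM in Input siRNAG5, below all Input Ctrl libraries (3110 to 3430), and most of the 10 genes are lower and more scattered in Polysome than in Input.

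The first question was whether silencing of Gemin5 changed the glycolytic mRNAs in the cytoplasmic pool. In Input, the responses went both ways: TPI1, LDHA, ENO1 and PKM fell, HK2 and PFKP rose, and GPI, ALDOA, GAPDH and PGK1 did not pass the test. Of 14134 genes tested, 19.1% fell and 17.9% rose at an adjusted p under 0.05, so that 4 of 10 lower and 2 of 10 higher is to be read against that background. With the added demand of a log2 FC beyond 0.5, which is what a call means below, TPI1 was called lower (6.02% of all genes) and HK2 higher (10.5%). The median log2 FC of the 10 genes was -0.12, beside 0.04 over all genes tested. In bulk RNA, fewer cells with an mRNA and less of it per cell cannot be told apart.

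Among the enzymes above the split of the hexose, HK2 was measured at 5.27, 4.57, 4.71 and 5.59 CPM in the Input Ctrl libraries and at 5.60, 11.0, 5.73 and 8.99 in Input siRNAG5. All siRNAG5 libraries lay above all Ctrl libraries, as they did for 16.1% of genes, but siRNAG5 1 and 3 were above the highest Ctrl library by little. HK2 rose by a log2 FC of 0.65 ± 0.18 (SE, adjusted p = 0.00542), on 53 to 171 reads per library, and without Input siRNAG5 2 the log2 FC was 0.46 and the call was lost (adjusted p = 0.0405). PFKP was at 57.9, 56.1, 56.9 and 69.2 CPM in Ctrl and at 80.1, 75.4, 60.0 and 67.2 in siRNAG5. Its groups overlapped, since Ctrl 4 was above siRNAG5 3 and siRNAG5 4. PFKP rose by 0.25 ± 0.086 (adjusted p = 0.0231) and passed in 3 of the 8 fits that left out 1 library. GPI ranged from 363 to 402 CPM in Ctrl and from 311 to 369 in siRNAG5, with a log2 FC of -0.15 ± 0.064 (adjusted p = 0.0685).

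At the split of the hexose the paired enzymes differed. ALDOA ranged from 2955 to 3421 CPM in Ctrl and from 2798 to 3249 in siRNAG5 (log2 FC -0.08 ± 0.063, adjusted p = 0.310). TPI1 was at 3110, 3430, 3356 and 3230 CPM in Ctrl and at 2086, 2267, 2269 and 2210 in siRNAG5. No library of the 2 groups came close to the other group, and 18.1% of genes had all siRNAG5 libraries below all Ctrl libraries. TPI1 fell by 0.56 on the log2 scale (SE 0.058, adjusted p = 1.15e-08), to 0.679 of its Ctrl level, and was called in all 8 fits that left out 1 library (adjusted p = 1.84e-09 to 4.35e-07). With offsets for GC content and length the log2 FC of TPI1 was -0.46 (adjusted p = 5.67e-07), short of a call. Some of its transcript is shared with the processed pseudogene TPI1P1, with 9.03% of its windows of 100 bases found there too. Pseudogenes of TPI1 held 0.280 to 0.532% of the reads of the gene and its pseudogenes together.

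Of the enzymes that yield ATP and NADH, GAPDH ranged from 9150 to 9644 CPM in Ctrl and from 8134 to 9818 in siRNAG5. The log2 FC of GAPDH was -0.06 ± 0.061 (adjusted p = 0.450), with a 95% interval of -0.18 to 0.06. PGK1 ranged from 600.2 to 679 CPM in Ctrl and from 610 to 750.0 in siRNAG5 (log2 FC 0.08 ± 0.067, adjusted p = 0.348). PKM was at 1095, 1178, 1251 and 1330 CPM in Ctrl and at 1023, 1099, 1008 and 1022 in siRNAG5. Only siRNAG5 2 reached into the Ctrl range, just above its lowest library, and PKM fell by 0.21 on the log2 scale (SE 0.063, adjusted p = 0.00870).

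ENO1, which precedes PKM, was at 2174, 2421, 2602 and 2606 CPM in Ctrl and at 2032, 2270, 1954 and 1971 in siRNAG5. Again siRNAG5 2 was the 1 library inside the Ctrl range. ENO1 fell by 0.24 on the log2 scale (SE 0.066, adjusted p = 0.00449). ENO1 and PKM passed in all 8 fits that left out 1 library. They did not pass without Input Ctrl 3 and 4, the libraries with liver reads (log2 FC -0.15 and -0.12, adjusted p = 0.150 and 0.244), which were also the highest for both genes.

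LDHA was at 1748, 1715, 1677 and 1776 CPM in Ctrl and at 1148, 1505, 1197 and 1313 in siRNAG5. The groups did not overlap, and the coefficient of variation of the Ctrl libraries was 2.46%. LDHA fell by 0.41 on the log2 scale (SE 0.068, adjusted p = 1.98e-05), short of the 0.5 needed for a call, and passed in all 8 fits that left out 1 library. Without Input Ctrl 3 and 4 the log2 FC was -0.56 for TPI1, -0.42 for LDHA, 0.68 for HK2 and 0.32 for PFKP, and all 4 passed (adjusted p = 9.28e-07, 0.000423, 0.0275 and 0.0282).

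The silencing result depends on how libraries are scaled to each other. Scaled to total gene reads alone, without correction for composition, the median log2 FC of all genes moved up by 0.11 in Input and TPI1 was no longer called (log2 FC -0.45), and ALDOA and GAPDH turned from below to above 0. At an adjusted p under 0.05, 2 of the 10 genes then fell (TPI1 and LDHA) and 3 rose (HK2, PFKP and PGK1). Over all genes the calls went from 851 lower and 1479 higher to 450 and 2175. Relative to the median of all genes, TPI1 was at -0.59 and -0.60 on the 2 scales, LDHA at -0.44 and -0.45, HK2 at 0.61 and 0.61, and 7 of the 10 genes were below the median on both. Such a change of scaling moves all genes by nearly the same amount. These positions could therefore hardly move, and they are no separate support.

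**Figure D2:**
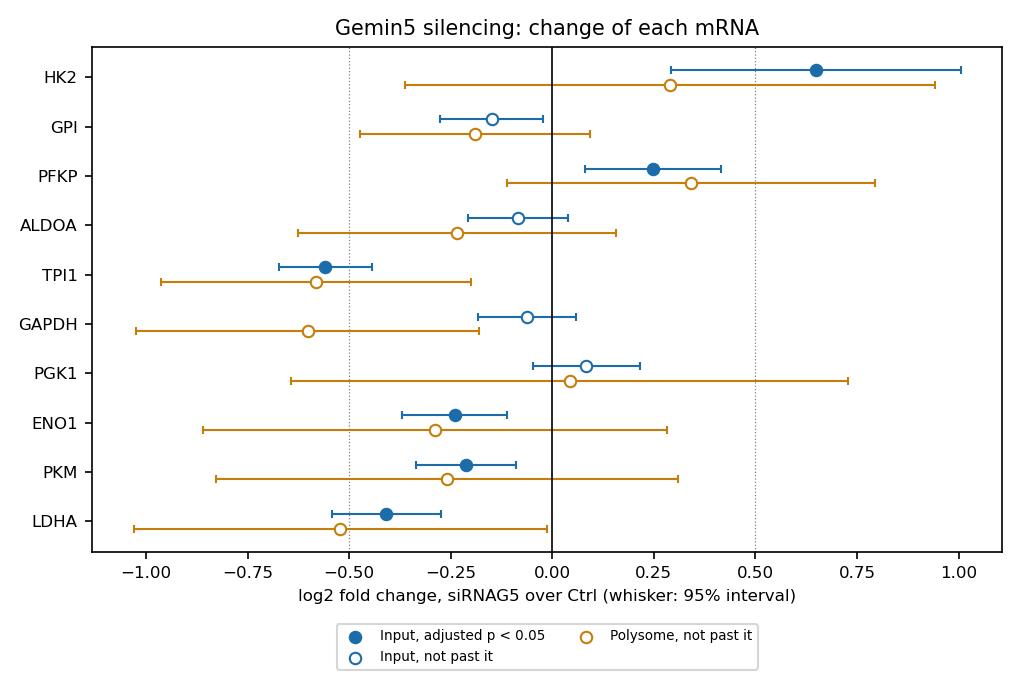
The log2 FC of siRNAG5 against Ctrl for the 10 glycolytic mRNAs in Input and in Polysome, with bars for 95% intervals from the edgeR fits. TPI1 and LDHA lie below 0 in Input with narrow bars and HK2 and PFKP above it, and the bars in Polysome are wider for each of the 10 genes.

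The next comparison asks what silencing changed among polysomal mRNAs. In Polysome none of the 10 genes passed, either way (edgeR quasi-likelihood test), where 4% of 14420 genes were called lower and 3.95% higher. GAPDH and TPI1 were lower at an unadjusted p under 0.05, as were 13.3% of genes, and none was higher. DESeq2 called these same 2 genes lower (log2 FC -0.64 and -0.61, adjusted p = 0.00488 and 0.00289), where it called 1101 of the 14420 genes lower. The median log2 FC of the 10 genes was -0.25, beside 0.03 for all genes, and scaling to total gene reads moved the median of all genes up by 0.35. Over all genes the calls then went from 577 lower and 569 higher to 207 and 2307. On that scale GPI, ALDOA, ENO1 and PKM turned from below to above 0. On both scales 7 of the 10 genes were below the median of all genes, a position that the scaling can hardly move.

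GAPDH was at 3310, 5520, 4455 and 5482 CPM in the Polysome Ctrl libraries and at 2941, 3209, 2949 and 2875 in Polysome siRNAG5. The siRNAG5 libraries were tightly grouped (SD 147) and lay below all Ctrl libraries, which varied more (SD 1045). The log2 FC of GAPDH was -0.60 ± 0.22 (adjusted p = 0.0987). TPI1 was at 3390, 3314, 2660 and 3092 CPM in Ctrl and at 1934, 1915, 1788 and 2466 in siRNAG5, with a log2 FC of -0.58 ± 0.20 (adjusted p = 0.0819), close in size to its fall in Input. TPI1 and GAPDH were the 2 of the 10 genes whose siRNAG5 libraries were all below Ctrl, against 8.55% of all genes, and none was all above (9.68%).

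LDHA was at 851, 1530, 1389 and 1734 CPM in Polysome Ctrl and at 687, 1269, 1018 and 731 in Polysome siRNAG5. Ctrl 1 was below siRNAG5 2 and 3, and the log2 FC of -0.52 ± 0.26 had an adjusted p of 0.216. For ENO1 (-0.29 ± 0.29), PKM (-0.26 ± 0.29), ALDOA (-0.23 ± 0.20) and GPI (-0.19 ± 0.14) the log2 FC was below 0 with overlapping ranges, and for PFKP (0.34 ± 0.23), HK2 (0.29 ± 0.33) and PGK1 (0.04 ± 0.35) it was above 0. PGK1 ranged from 198 to 581 CPM in Ctrl and from 277 to 662 in siRNAG5. The 95% intervals were wide, such as -0.64 to 0.73 for PGK1 and -0.86 to 0.28 for ENO1, so that the absence of a change is not shown.

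Leaving out Polysome Ctrl 1, siRNAG5 1 and siRNAG5 4 gave GAPDH -0.69, TPI1 -0.65 and LDHA -0.38 (adjusted p = 0.0679, 0.0620 and 0.217) and PFKP 0.52, which was then called higher (adjusted p = 0.0365). That fit called 1788 of 14717 genes lower and 1327 higher. Since the libraries left out stand out by the levels of the glycolysis genes themselves, the call of PFKP is a description. With all 16 libraries in one fit, TPI1, GAPDH and LDHA were called lower in Polysome (adjusted p = 0.00274, 0.00676 and 0.0469), and in Input TPI1 was then the 1 glycolysis gene that passed. Of 14958 genes, that fit called 1520 lower in Polysome, and in Input 1284 fell at an adjusted p under 0.05. Liver reads were present in all 4 Polysome Ctrl libraries and at 9 to 19 reads in the 4 siRNAG5 libraries, so that in Polysome their part in these values cannot be told apart from the treatment.

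Whether the change in Polysome exceeded the change in Input was tested as 1 interaction term over the 16 libraries. No gene of 14958 was called in either direction (0% lower and 0% higher), where DESeq2 called 11 lower and 18 higher and where an unadjusted p under 0.05 was reached by 701 genes in the lower direction and 388 in the higher. GAPDH was the 1 glycolysis gene at an unadjusted p under 0.05, a level at which 4.69% of genes were lower. Its change in Polysome minus that in Input was -0.57 ± 0.23 on the log2 scale (edgeR adjusted p = 0.556), with a 95% interval of -1.01 to -0.13. Without Polysome Ctrl 1, siRNAG5 1 and siRNAG5 4, a choice made after the data were seen, it was -0.65 and was called (adjusted p = 0.0403), as were 659 of 15343 genes in the same direction. For the other 9 genes the difference ran from -0.40 (HK2) to 0.06 (PFKP). It was -0.05 ± 0.19 for TPI1, with a 95% interval of -0.42 to 0.32. The median of the 10 genes was -0.09, beside -0.06 for all genes. Scaled to total gene reads, the median of all genes moved up by 0.27, and of the 10 genes 8 were below the median of all genes with the composition correction and 5 without it.

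The comparison of the fractions asks how these mRNAs were represented on polysomes relative to the cytoplasmic pool. In Ctrl cells, PFKP, ENO1, PKM, GAPDH, ALDOA and GPI were called lower in Polysome than in Input, and none was called higher. Of all genes, 18.2% were called lower and 19.4% higher. In siRNAG5 cells the same 6 genes were called lower, beside 25.4% of genes called lower and 21.5% higher. The median log2 FC of Polysome against Input was -0.78 for the 10 genes in Ctrl and -0.91 in siRNAG5, beside -0.04 and -0.12 for all genes. The values are relative to all mRNAs in the fraction, and do not give the share of a gene's mRNA on ribosomes.

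PFKP was at 17.0, 20.7, 30.7 and 27.3 CPM in Polysome Ctrl, beside 56.1 to 69.2 in Input Ctrl, and at 24.5, 39.5, 32.9 and 20.4 in Polysome siRNAG5, beside 60.0 to 80.1. The fractions did not overlap in either treatment. For PFKP this gave a log2 FC of -1.32 ± 0.19 in Ctrl and -1.27 ± 0.19 in siRNAG5 (adjusted p = 1.90e-05 and 1.45e-05). ENO1 was at 614, 1091, 1389 and 1535 CPM in Polysome Ctrl and between 678 and 1278 in Polysome siRNAG5, all below the lowest Input library of its treatment (2174 and 1954). Its log2 FC was -1.08 ± 0.23 and -1.17 ± 0.23 (adjusted p = 0.000827 and 0.000286).

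PKM followed ENO1 closely, at 333, 567, 719 and 766 CPM in Polysome Ctrl and 330, 671, 570 and 351 in Polysome siRNAG5 (log2 FC -1.03 ± 0.23 and -1.11 ± 0.23, adjusted p = 0.00122 and 0.000425). GAPDH had a log2 FC of -1.01 ± 0.16 in Ctrl and -1.58 ± 0.16 in siRNAG5 (adjusted p = 4.99e-05 and 1.98e-07). ALDOA ranged from 1296 to 2135 CPM in Polysome Ctrl and from 1275 to 1744 in Polysome siRNAG5 (log2 FC -0.89 ± 0.15 and -1.07 ± 0.15, adjusted p = 0.000117 and 1.01e-05). GPI ranged from 217 to 259 and from 179 to 231 CPM (log2 FC -0.67 ± 0.11 and -0.74 ± 0.11, adjusted p = 6.51e-05 and 1.33e-05). These 6 genes were called in all 16 fits that left out 1 library, in both treatments.

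The other 4 genes did not pass in either treatment in the edgeR fit of the 16 libraries with TMM scaling and without a block or offsets. PGK1 had a log2 FC of -0.54 ± 0.28 in Ctrl and -0.63 ± 0.28 in siRNAG5 (adjusted p = 0.117 and 0.0605), and LDHA had -0.33 ± 0.20 and -0.48 ± 0.20 (adjusted p = 0.194 and 0.0501). Without Polysome Ctrl 1, siRNAG5 1 and siRNAG5 4 these values were smaller in size, and neither gene was called. PGK1 was then at -0.29 in Ctrl and -0.16 in siRNAG5 (edgeR adjusted p = 0.0429 and 0.313). LDHA was at -0.14 in both treatments (edgeR adjusted p = 0.319 and 0.350). With the culture (treatment and replicate number) as a block, PGK1 was called lower in both treatments (log2 FC -0.65 and -0.72, adjusted p = 0.0429 and 0.0209) and LDHA in siRNAG5 (-0.52, adjusted p = 0.0267). The same calls were made with offsets for GC content and length, for PGK1 (-0.90 and -1.05, adjusted p = 0.00179 and 0.000351) and LDHA (-0.51, adjusted p = 0.0175). With these offsets TPI1 passed above 0 (0.25 and 0.33, adjusted p = 0.0287 and 0.00387). Without them TPI1 was close to 0 between the fractions, at -0.08 ± 0.13 and -0.12 ± 0.13, with 95% intervals of -0.34 to 0.18 and -0.38 to 0.14. TPI1 therefore made up 24.0% ± 6.26 of the reads of the 10 genes in Polysome Ctrl, against 14.7% ± 0.729 in Input Ctrl. HK2 had 0.32 ± 0.32 and -0.07 ± 0.29, on 39 to 286 reads per Polysome library. All Polysome libraries lay below all Input libraries for 7 of the 10 genes in Ctrl (the 6 called and PGK1), beside 22.1% of genes, and for 6 in siRNAG5, beside 27.3%.

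The share of reads aligned to several places differed between the fractions, and its part in these values was not tested. For 8 of the 10 genes no window of 100 bases of the canonical transcript occurs in another annotated gene, the exceptions being TPI1 and LDHA (0.607% of its windows). GAPDH has 65 annotated pseudogenes, which held 0.276 to 0.821% of the reads of the gene and its pseudogenes together. Scaled to total gene reads, the median of all genes moved up by 0.55 in Ctrl and 0.81 in siRNAG5, and the calls over all genes went from 2725 lower and 2898 higher to 774 and 6620 in Ctrl, and from 3803 and 3223 to 875 and 8597 in siRNAG5. In Ctrl PFKP was then called lower (log2 FC -0.76) and HK2 higher (0.90), and in siRNAG5 GAPDH was called lower (-0.75) and TPI1 higher (0.68). TPI1, PGK1 and LDHA turned to above 0 in both treatments, and GPI and HK2 in siRNAG5. Relative to the median of all genes, 9 of the 10 genes were below it on either scale in both treatments, a position that the scaling can hardly move.

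**Figure D3:**
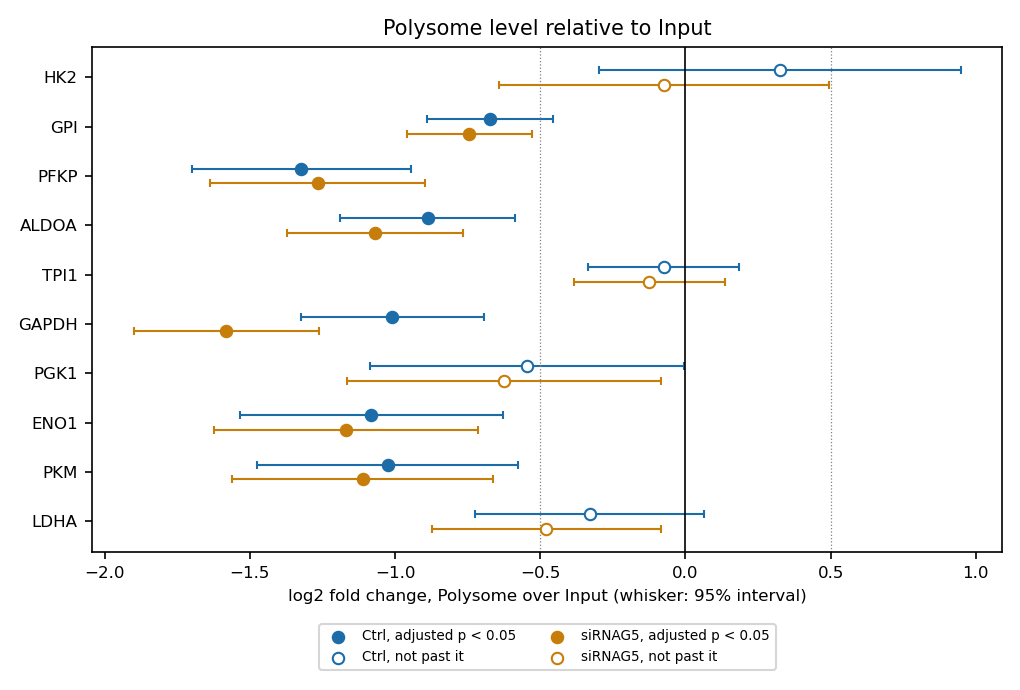
The log2 FC of Polysome against Input for the 10 glycolytic mRNAs in Ctrl and in siRNAG5 cells, with bars for 95% intervals from 1 edgeR fit of the 16 libraries. PFKP, ENO1, PKM, GAPDH, ALDOA and GPI lie below 0 in both treatments, GAPDH moves from -1.01 in Ctrl to -1.58 in siRNAG5, and TPI1 lies near 0.

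The glycolytic mRNAs varied together between Polysome libraries. In Input the median SD of the 10 genes in log2 CPM was 0.0954 for Ctrl and 0.123 for siRNAG5, below the medians over all genes (0.171 and 0.165), but 0.417 in Polysome Ctrl and 0.419 in Polysome siRNAG5, above those over all genes (0.298 and 0.290). The mean of the 10 genes, each centred on its own mean, was -0.82 in Polysome Ctrl 1, -0.79 in Polysome siRNAG5 1 and -0.72 in Polysome siRNAG5 4, and between -0.41 and 0.07 in the other 5 Polysome libraries. ENO1 and PKM showed it most plainly, with PGK1. TPI1 did not follow it, its highest Polysome level being in Ctrl 1, nor did GAPDH within siRNAG5. The Pearson r between the centred profiles of 2 genes had a median of 0.758 over the 45 pairs and 16 libraries, and 0.746 after the mean of each group was taken out, with a lowest value of -0.526. These libraries share depth and scaling, so the correlations are a description. No such r was taken for other sets of genes, so they are not shown to be particular to glycolysis.

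**Figure D4:**
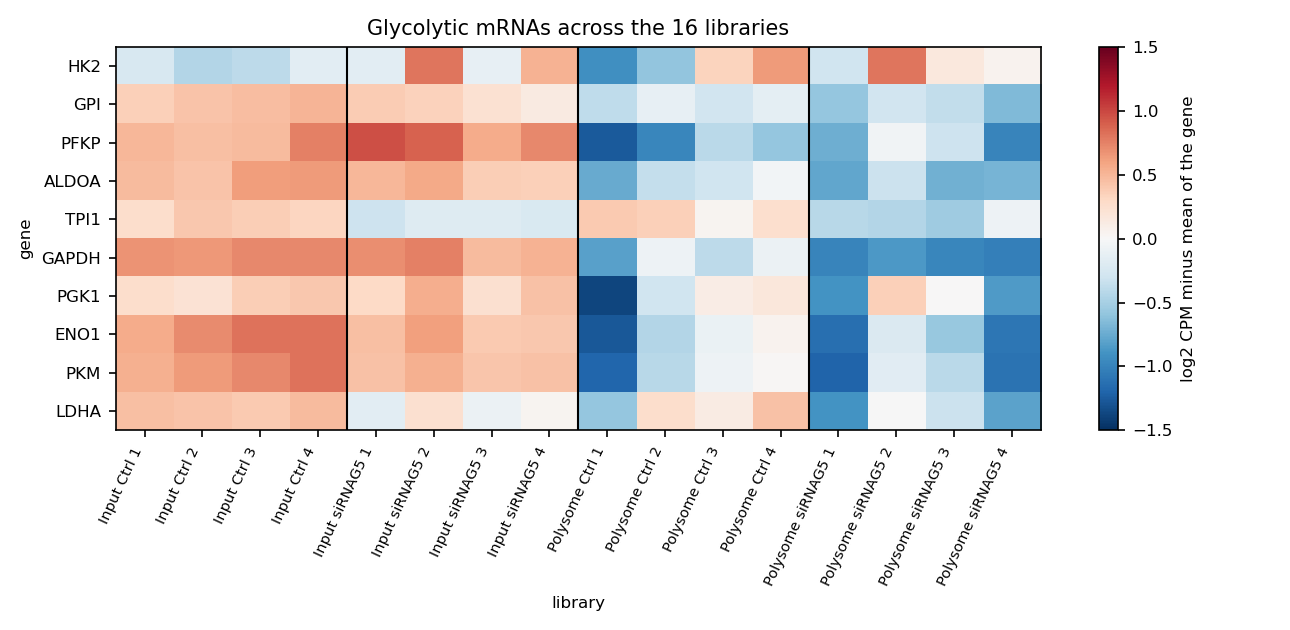
Log2 CPM of the 10 glycolytic mRNAs in each of the 16 libraries, as the difference from the gene's own mean. Polysome Ctrl 1, siRNAG5 1 and siRNAG5 4 are low for PGK1, ENO1 and PKM (-0.85 to -1.38), whereas TPI1 follows the treatment in both fractions.

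Most steps have other isozymes, and these are the nearest comparison for the 10 genes. In Input, 11 of 20 other glycolytic enzymes and isozymes were tested, of which 5 rose and 1 fell at an adjusted p under 0.05 and 3 were called, all higher. These counts, and those of the lists that follow, are to be read against the shares of all genes in Input, where 17.9% rose, 19.1% fell, 10.5% were called higher and 6.02% lower. The lists were chosen with earlier results of these data known, so that setting them beside such shares is no test. ENO2, the neuronal enolase, rose by 0.64, ALDOC, the brain aldolase, by 0.61 and ENO3, the muscle enolase, by 0.59. HK1 (0.37) and PFKM (0.30) rose without a call, PGAM1, the phosphoglycerate mutase between PGK1 and ENO1, fell by 0.40 on the log2 scale (adjusted p = 4.35e-06), and PFKL (0.14) and LDHB (-0.10) did not pass. Per kilobase of exon in Input Ctrl, LDHB (978 CPM per kb), HK1 (6.03) and PFKL (16.6) were above LDHA, HK2 and PFKP, and ALDOC (10.7) and ENO2 (1.36) were far below ALDOA and ENO1.

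As a share of their family per kilobase of exon, isozymes moved little. The size of a share depends on that length. For LDHA it is 6026 bases, against 2241 in the canonical transcript, and for PFKP 7774 against 2626. ALDOA made up 98.7% ± 0.198 of aldolase in Input Ctrl and 97.99% ± 0.104 in Input siRNAG5, and ENO1 made up 99.6% ± 0.0925 and 99.2% ± 0.0541 of enolase. LDHA made up 22.6% ± 1.15 of LDHA and LDHB in Input Ctrl (21.4 to 24.1%) and 19.1% ± 1.82 in Input siRNAG5 (17.4 to 21.2%). The difference was -3.55 percentage points, with groups that did not overlap (2-sided exact permutation test, p = 0.0286, adjusted p = 0.0571 over 10 such tests). PFKP made up 16.4% ± 1.49 of phosphofructokinase in Polysome Ctrl and 19.3% ± 1.68 in Polysome siRNAG5 (exact permutation p = 0.0571, adjusted p = 0.0952). In 5 of the 10 tests, which were chosen after the data were seen, p was 0.0286, the smallest that 4 against 4 libraries allow, and none passed after adjustment. LDHA held a larger part of lactate dehydrogenase in Polysome, 32.6% ± 3.50 in Ctrl, where LDHB was called lower than in Input (log2 FC -1.01).

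In Polysome, none of the 11 enzymes tested in Input was called after silencing, with ENO2 at 0.74, ALDOC at 0.51 and PGAM1 at -0.38. Between the fractions, 6 of 13 were called lower in Ctrl and 7 of 13 in siRNAG5 (18.2% and 25.4% of all genes), and none higher. LDHB (-1.01 and -1.25), PFKM (-0.93 and -0.94), HK1 (-0.93 and -0.99) and ALDOC (-0.76 and -0.89) were the lowest. PGAM1 did not pass between the fractions (0.13 and 0.12, with 95% intervals of -0.07 to 0.33 and -0.08 to 0.32).

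Glucose enters by facilitative transporters and lactate leaves by monocarboxylate transporters. In Input, 9 of 12 such genes were tested, 3 were called higher and 1 lower (10.5% and 6.02% of all genes). SLC2A3 was at 1.35 to 2.67 CPM in Ctrl and 4.33 to 9.39 in siRNAG5, on 18 to 140 reads, and rose by 1.72 ± 0.24 (adjusted p = 1.57e-06). SLC2A4 rose by 1.05, SLC2A12 by 0.67, and SLC2A6 fell by 0.73. SLC2A1, the main glucose transporter of dividing cells, was at 25.0 to 39.9 CPM in Ctrl with a log2 FC of -0.20 ± 0.11 (adjusted p = 0.140), and SLC16A1, a lactate transporter, was at 0.08 ± 0.083 (adjusted p = 0.491). SLC16A3 had at most 5 reads in any library and was not tested. In Polysome none of the 9 was called, with SLC2A3 at 1.28 ± 0.38 (adjusted p = 0.0594). Between the fractions, SLC2A1 (-1.11 in Ctrl and -1.31 in siRNAG5) and SLC16A1 (-0.91 and -1.03) were called lower in Polysome, as 4 and 6 of the 9 were (18.2% and 25.4% of all genes).

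Of the regulators of glycolysis, 7 of 9 were tested. In Input PFKFB4, which makes and breaks down the activator of phosphofructokinase, rose by 0.65, and PGP, which removes a side product of the pathway, fell by 0.65 on the log2 scale, and in Polysome none was called. PFKFB2 and PFKFB3 were called higher in Polysome than in Input, at 1.28 and 0.72 in Ctrl and 1.41 and 0.75 in siRNAG5, opposite in direction to PFKP. Among 5 glucose-responsive transcription genes, TXNIP, which limits glucose uptake, rose in both fractions. It went from 4.80 to 7.01 CPM in Input Ctrl to 17.2 to 22.6 in Input siRNAG5 (log2 FC 1.77 ± 0.13, adjusted p = 2.80e-11), and had 1.75 ± 0.28 in Polysome (adjusted p = 0.00734). Its paralogue ARRDC4 rose by 0.82 and 0.99, and MLXIPL, a glucose-sensing transcription factor, by 1.00 in Input. Of the 5 genes, 3 were called higher in Input (10.5% of all genes) and 1 fell at an adjusted p under 0.05 (19.1%). In Polysome 2 were called higher (3.95% of all genes), and MLXIPL was not among them.

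Neighbouring pathways were described in the same way. Of 6 gluconeogenesis genes tested in Input, 2 were called, both higher: PCK2, the mitochondrial carboxykinase, at 1.42 and PC, pyruvate carboxylase, at 0.84, and PCK2 was also called in Polysome at 1.28. Of 9 pentose phosphate genes, RPIA, which interconverts the pentoses, was called lower in Input and in Polysome (-0.62 and -0.53) and no other was. Of 13 pyruvate entry and pyruvate dehydrogenase genes, 6 fell and 1 rose in Input at an adjusted p under 0.05 (19.1% and 17.9% of all genes) without a call, and in Polysome PDK1, the kinase that switches the complex off, was called higher at 0.76. Of 16 genes of the tricarboxylic acid cycle, 9 fell and 1 rose in Input (19.1% and 17.9% of all genes), with IDH3A called lower at -0.50, and none was called in Polysome.

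Hypoxia-inducible factor HIF-1 is a known activator of most of the 10 genes, so that its other targets are given too. Of 19 HIF-1 factors and targets outside glycolysis, 7 rose and 0 fell in Input at an adjusted p under 0.05 (17.9% and 19.1% of all genes), and 4 were called higher (10.5% of all genes): DDIT4 (0.99), NDRG1 (0.70), P4HA2 (0.65) and P4HA1 (0.61). In Polysome DDIT4 alone was called, at 0.91.

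**Figure D5:**
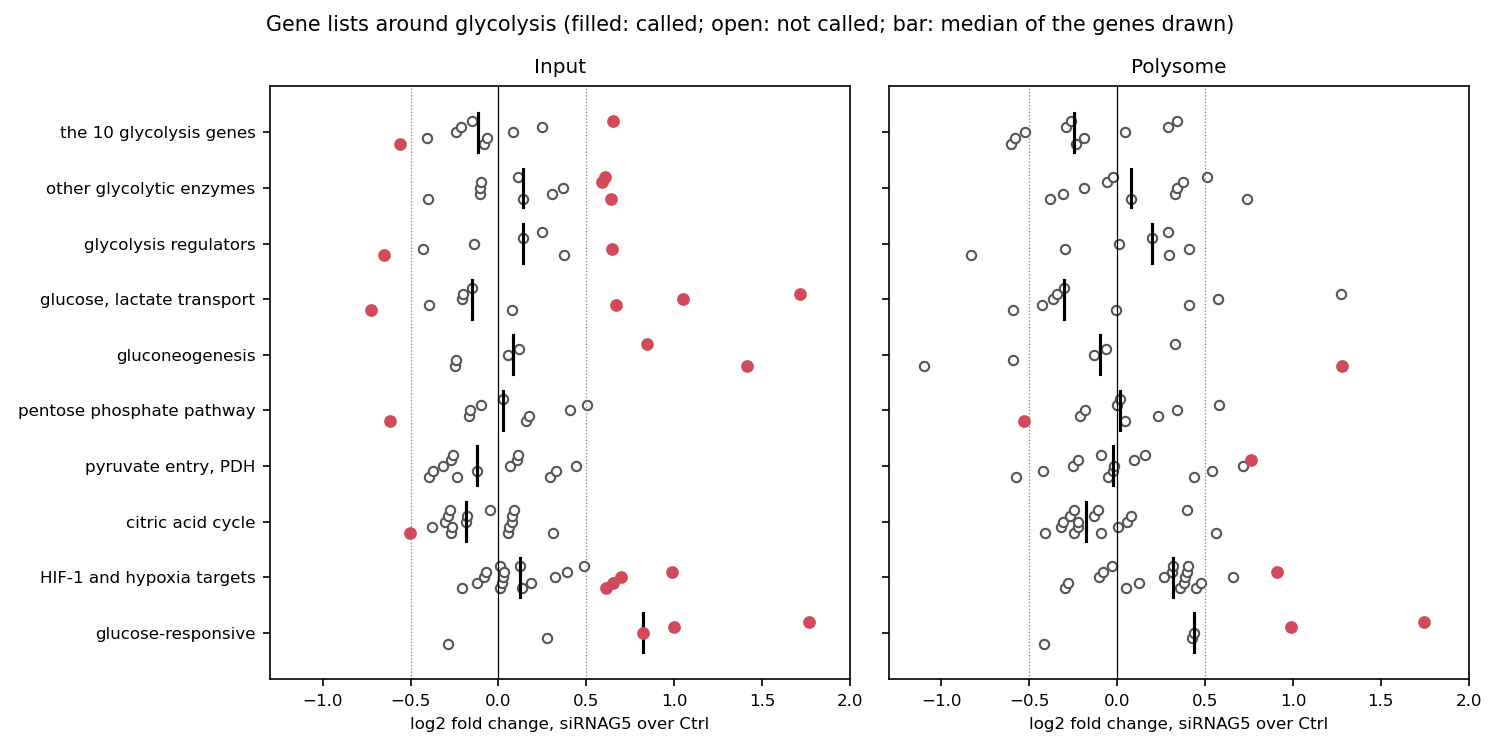
The log2 FC of siRNAG5 against Ctrl for tested genes of the related pathways in Input and in Polysome, 1 point per gene, with filled points for called genes and 1 gene not drawn. In Input most called genes are above 0, up to 1.77 for TXNIP, whereas TPI1 is the called glycolysis gene below 0.

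Between the fractions the neighbouring pathways differed, beside 18.2% of all genes called lower and 19.4% higher in Ctrl, and 25.4% and 21.5% in siRNAG5. In Ctrl, 4 of 9 pentose phosphate genes were called lower in Polysome, led by TKT (-1.58) and PGD (-1.12), and 1 higher, H6PD (1.00). Of the 16 genes of the tricarboxylic acid cycle 8 were called lower, with SDHA at -1.44, and none higher. Of 14 pyruvate entry and pyruvate dehydrogenase genes 3 were called lower and 2 higher in Ctrl, and 2 lower and 4 higher in siRNAG5, with medians of 0.11 and 0.14. The 12 TOP mRNAs were lower than the glycolysis genes, with 11 of 12 called in Ctrl and 12 of 12 in siRNAG5 and medians of -1.34 and -1.94, beside -0.78 and -0.91 for the 10 glycolysis genes. The difference between these 2 lists was not tested. After silencing, EEF2 was called higher in Input (0.80) and Polysome (0.69), and no other TOP mRNA was called in either. The log2 FC of the other 11 TOP mRNAs was below 0 in Polysome, where the median of the 12 was -0.56, beside 0.03 for all genes. For their change in Polysome minus that in Input, 12 of 12 were below 0 (median -0.64, beside -0.06 for all genes) and none was called.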

How the data were processed

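RNA from 16 libraries of HEK-293 cells was prepared as stranded polyadenylated libraries by the authors, who aligned reads to GRCh38 (Ensembl release of that study) with STAR 2.5.3a and counted them per gene with QoRTs. The deposited values are whole-number counts without normalization, with reads that were ambiguous (4.14 to 7.41%), without a feature (0.667 to 1.33%) or aligned to several places (4.88 to 42.4%) listed apart from the genes and left out here. Groups came from the labels. Genes were named and placed by GENCODE v44 (GRCh38, a later release), which named 57532 of 58302 identifiers.

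Counts were fitted across all genes by the quasi-likelihood test of edgeR 4.0.16 (R 4.3.3), after filterByExpr and TMM scaling, with Benjamini-Hochberg adjustment. Silencing was fitted on the 8 libraries of each fraction, and the fractions and the interaction on all 16. Calls combine a log2 FC past 0.5 in size with an adjusted p below 0.05. The study's methods name DESeq2 without a design for the fractions, and DESeq2 1.42.0 was an alternative here. Intervals at 95% assume a normal error. The scripts were tested on simulated data. Each of the 82 group values of the named genes was checked with Dixon's test.

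The genes and lists were chosen with earlier results of these data known. Named are the 10 genes, GEMIN5, the isozymes and transporters given by value, and of each other list at most the 4 called genes with the largest log2 FC per comparison. TOP mRNAs and markers are named where they serve as a check. Some genes of these lists are not reported here. Alternatives covered scaling, filter, tool, replicate block, a surrogate variable (sva 3.50.0), GC content and length, and left-out libraries. Isozyme shares, the canonical length and the interaction without 3 Polysome libraries were added after the data were seen. Figures used matplotlib 3.10.9.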

Additional observations from a re-analysis of the deposited data

Results flagged for a closer look

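Dixon's test at the 95% level was applied to 82 sets of 4 libraries, and chance gives about 1 in 20. A library far from the other 3 of its group was found for 5 genes. PFKP was at 69.2 CPM in Input Ctrl 4, above the other 3 libraries at 56.1 to 57.9, and this library lies within the siRNAG5 range. ALDOA was at 1744 CPM in Polysome siRNAG5 2, above 1275 to 1348 in the others. PKM was at 1099 CPM in Input siRNAG5 2, above 1008 to 1023. PFKM was at 52.4 CPM in Input Ctrl 1, below 59.6 to 60.2. SLC2A3 was at 0.481 CPM in Polysome Ctrl 2, on 7 reads, below 1.92 to 2.12.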

How the results depend on the processing

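Of the 10 genes, 1 was called lower and 1 higher in Input, none in Polysome or for the difference between the fractions, and 6 lower in Polysome against Input in either treatment. Scaled to total gene reads, 0 were called lower in Input and 2 fell and 3 rose at an adjusted p under 0.05 (in place of 4 and 2), and between the fractions 1 was called lower and 1 higher in each treatment. With offsets for GC content and length, 0 were called lower in Input, as TPI1 was at -0.46. Between the fractions these offsets added PGK1 in both treatments and LDHA in siRNAG5 to the genes called lower. With all 16 libraries in one fit, 0 were called higher in Input, 1 fell and 0 rose at an adjusted p under 0.05, and 3 were called lower in Polysome. Without Input Ctrl 3 and 4, 2 fell. In Polysome, DESeq2 called 2 lower, a surrogate variable 3 and an unadjusted p 2, and without Polysome Ctrl 1, siRNAG5 1 and siRNAG5 4, 1 was called higher and 1 was called lower for the difference, as at an unadjusted p. Over all genes, the lower calls in Polysome went from 577 to 1101 with DESeq2, 1401 with a surrogate variable and 1343 at an unadjusted p. The causes of these shifts were not tested beyond their construction. With 1 library left out, the genes called higher in Input numbered 0 to 1 (0 without siRNAG5 2), those that rose at an adjusted p under 0.05 numbered 1 to 2, and those called lower in Polysome against Input in siRNAG5 numbered 6 to 8.

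The values that changed sign follow, and of them GPI between the fractions in siRNAG5 was past the threshold as reported. Among those under another scaling, tool or fit, TPI1 between the fractions alone passed with the other sign. Scaled to total gene reads, silencing gave ALDOA 0.018 and GAPDH 0.041 in Input, GPI 0.18, ALDOA 0.12, ENO1 0.065 and PKM 0.10 in Polysome, and for the difference GPI 0.22, ALDOA 0.10, TPI1 0.22, PGK1 0.22, ENO1 0.20, PKM 0.21 and LDHA 0.15. On that scale Polysome against Input gave TPI1 0.46, PGK1 0.026 and LDHA 0.22 in Ctrl, and HK2 0.77, GPI 0.093, TPI1 0.68, PGK1 0.24 and LDHA 0.37 in siRNAG5. With GC and length offsets, GAPDH was at 0.023 in Input and PGK1 at -0.13 in Polysome, the difference was 0.084 for TPI1, 0.030 for ENO1 and 0.028 for PKM, and Polysome against Input was 0.25 and 0.33 for TPI1. A surrogate variable gave PGK1 -0.15 in Polysome and HK2 -0.073 between the fractions in Ctrl, and the fit of 16 libraries PGK1 -0.011. Without Input Ctrl 3 and 4, ALDOA was at 0.0021 in Input and the difference for PFKP at -0.015. Without the 3 Polysome libraries, the difference was 0.036 for GPI, 0.13 for PGK1, 0.037 for ENO1 and 0.10 for PKM, and HK2 was at 0.24 between the fractions in siRNAG5, where the 8 libraries of that treatment alone gave 0.011. With 1 library left out, PGK1 ran from -0.22 to 0.21 in Polysome, HK2 from -0.30 to 0.13 between the fractions in siRNAG5, and the difference from -0.10 to 0.20 for PFKP, -0.16 to 0.030 for TPI1, -0.34 to 0.085 for PGK1, -0.27 to 0.079 for ENO1 and -0.27 to 0.058 for PKM.

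The study's methods take Input and Polysome RNA from each lysate, but the labels do not tie the numbers to lysates. The data did not show the numbers to pair the samples. Deviations from the group means correlated between same-numbered Input and Polysome libraries of a treatment at -0.21 to 0.22. Not every library correlated best with its own number. Between Ctrl and siRNAG5 libraries of a fraction, which are different cultures, the same numbers correlated at -0.53 to 0.48. With the replicate block, 7 genes in Ctrl (PGK1 added) and 8 in siRNAG5 (PGK1 and LDHA added) were called lower in Polysome against Input, and the counts for silencing (in Input 1 lower and 1 higher, and 0 elsewhere) did not move. HK2 rests on 39 to 286 reads per library and SLC2A3 on 7 to 144, so that depth limits both. Depth also limits other genes given by fold change that were below HK2 in every Input Ctrl library. Among them were H6PD, with a lowest level there of 0.497 CPM, PFKFB2 (0.748), SLC2A4 (0.898), MLXIPL (1.65) and ENO3 (1.65). Each edgeR p-value sets a difference between groups against the spread between libraries within groups. That spread is pooled over all groups of the fit and moderated across genes. Levels per kilobase of the canonical transcript put ALDOA above TPI1 in Input siRNAG5, and PKM above PGK1 in Input siRNAG5 and both Polysome groups.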

Other observations

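The genes whose profile over the 16 libraries was most like the mean of the 10 centred glycolysis profiles were LAS1L (Pearson r 0.984), TUBB (0.982), TUBA1A (0.982), FUBP1 (0.982) and GNL2 (0.982), taken from all genes past the filter on low counts. The libraries share depth, scaling and the split between fractions, and the r is a description.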
